A study of Mus musculus with 16 samples.

Results

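This set of 9 genes covers how the liver loads lipid onto lipoproteins and how lipases take that lipid off again. The genes are Mttp, Apob, Tm6sf2, Apoa4, Apoa5, Apoc3, Lipc, Lpl and Lipe. They were chosen by name, with earlier results of these data known. They were matched through the mouse gene symbols of the Ensembl identifiers, and all 9 were found among the 46078 genes of the count table. All 9 passed the filter on low counts and were among the 12910 genes tested. Liver RNA was sequenced in 16 libraries, 4 per group, from C57BL/6 mice aged 22 weeks. All groups shared diet-induced obesity and hepatic steatosis, so no lean or healthy liver stands beside them. One group received Dicretin, which activates both the glucagon-like peptide 1 receptor (GLP1R) and the glucagon receptor (GCGR). Another received Semaglutide, which activates GLP1R. The calorie-restricted group lost a comparable weight by diet alone, and the saline group received vehicle. The doses, the length of treatment and the sex of the mice are not given in the labels.

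The liver exports triglyceride on very low density lipoprotein (VLDL), a particle built around apolipoprotein B. The transfer protein MTTP places lipid on that apolipoprotein as it is made, and smaller, exchangeable apolipoproteins join the particle and set how fast lipases act on it. Lipoprotein lipase works mainly in muscle and fat capillaries, hepatic lipase on the surface of liver vessels, and hormone-sensitive lipase inside cells that store fat.

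Of the members, Apoa4 differed most between groups and lies beside 2 other members, Apoa5 and Apoc3, on chromosome 9. Promoter windows from RefSeq (GRCm38.p6), each of 250 bases before and 50 bases from a transcript start on, were matched for 6 of the 9 members, with 9 windows in all. The windows of Apoa4 (chr9:46240594-46240893, plus strand) and of a start of Apoa5 (chr9:46268383-46268682, plus strand) are shown because Apoa4 passed in 5 comparisons and its neighbour Apoa5 in none. Capitals mark matches to the 4 motifs searched.

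Apoa4: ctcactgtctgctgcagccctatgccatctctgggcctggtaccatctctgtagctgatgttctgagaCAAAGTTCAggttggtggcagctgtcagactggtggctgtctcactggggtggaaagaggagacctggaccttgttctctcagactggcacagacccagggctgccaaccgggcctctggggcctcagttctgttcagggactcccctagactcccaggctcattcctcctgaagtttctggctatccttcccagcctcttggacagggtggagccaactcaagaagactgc

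Apoa5: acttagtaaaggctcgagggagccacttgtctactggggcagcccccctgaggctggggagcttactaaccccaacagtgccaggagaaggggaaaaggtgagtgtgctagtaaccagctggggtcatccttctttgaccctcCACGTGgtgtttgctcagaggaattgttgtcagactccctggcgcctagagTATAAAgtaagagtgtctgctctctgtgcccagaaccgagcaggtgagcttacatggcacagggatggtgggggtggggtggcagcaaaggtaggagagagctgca

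The motifs were searched on both strands, and no match overlapped another. TGACG is the half-site bound by cyclic AMP response element binding proteins, and 20.8% of the 32851 promoter windows of the table held it. CAAAGTNCA is a site of the type bound by HNF4, the hepatocyte nuclear receptor, and 1.41% held it. The E-box CACGTG was in 7.15% and the TATA box TATAAA in 13.6%. The Apoa4 window held the HNF4-type letters at its position 69 and no other match. The Apoa5 window held the E-box at position 144 and the TATA box at position 195. The half-site was found, as CGTCA, in the Mttp window at position 223. Of the rest, Apob held the TATA box, an upstream Lipe window held the E-box, and neither Lipc window nor the downstream Lipe window held any of the 4. A match describes these letters and does not show that a factor binds.

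The libraries held 12.144 to 18.755 M counts assigned to genes. Levels are given as CPM (library-size-scaled counts) on scaled library totals, as means ± SD over 4 libraries. Differences are log2 fold changes ± SE from edgeR's quasi-likelihood test, with p-values adjusted by the Benjamini-Hochberg method over all 12910 genes of a comparison, and a gene passed at an adjusted p under 0.05. The labels number the libraries but say nothing further of their source, so these p-values measure the spread between these samples. Liver is a mixture of cells, and fewer cells of a type cannot be told apart from less RNA per cell. The summed level of 6 hepatocyte markers was 73280 to 97210 CPM in Dicretin, 113200 to 133400 in Semaglutide, 120200 to 139900 in calorie restriction and 89330 to 111100 in saline. Semaglutide library 15 carried muscle transcripts and Dicretin library 64 exocrine pancreas transcripts, with a summed level of 611 CPM over 5 pancreas markers there and at most 1.73 CPM in any other library. In Semaglutide 11 short genes were high against long ones and in Dicretin 14 they were low. The median deviation of genes under 1500 bases minus that of genes over 6000 bases was 0.99 and -0.60 on the log2 scale in these libraries, and between -0.36 and 0.40 in the other 14.

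Set against saline, 3 of 9 members passed in Dicretin, where 36.7% of all genes tested passed. Of these, 2 were higher (17.5% of all genes) and 1 lower (19.2%), and the libraries of 2 members did not overlap between the groups (34.2%). In Semaglutide 3 members passed, where 4.18% of all genes passed. Here 1 was higher (1.56% of all genes) and 2 lower (2.62%), and 3 did not overlap (14.2%). In calorie restriction 3 members passed, where 7.53% of all genes passed. Here 1 was higher (3.42%) and 2 lower (4.11%), and 4 did not overlap (22.9%). These comparisons share the saline libraries. The members, and the gene lists described further below, were chosen with earlier results of these data known. A share above that of all genes therefore cannot be read as a result about the set.

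Between treatments, 3 members passed for Dicretin against calorie restriction (31.3% of all genes), 1 of them higher (15.1%) and 2 lower (16.2%), and 4 did not overlap (28.4%). For Dicretin against Semaglutide 4 members passed (32.0% of all genes), 2 of them higher (14.8%) and 2 lower (17.1%), and 3 did not overlap (26.2%). For Semaglutide against calorie restriction 1 member passed (6.12% of all genes). It was higher (3.05%), none was lower (3.07%), and 3 did not overlap (15.6%). With Dicretin in the comparison, the share of members that passed was thus near that of all genes. The median log2 fold change of the members lay between -0.29 and 0.11 over the 6 comparisons, and that of all tested genes between -0.01 and 0.00. Lipe and Apoa4 passed in all 3 comparisons with saline. Mttp, Apoa5 and Lpl passed in none of the 6.

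**Figure D1:**
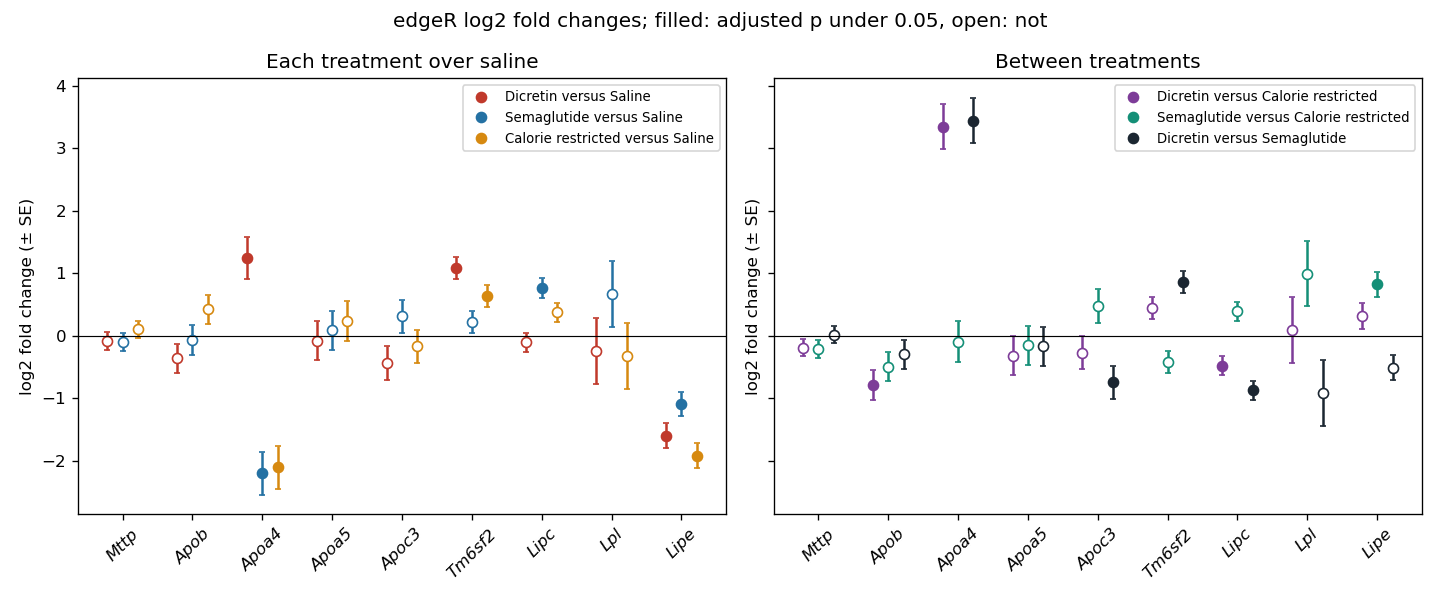
Log2 fold change of each of the 9 members in the 6 comparisons, with bars for the SE and filled points for members that passed at an adjusted p under 0.05. Apoa4 lay above 0 for Dicretin against saline and below 0 for Semaglutide and calorie restriction against saline, and Lipe lay below 0 in all 3 comparisons with saline.

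Of the particle assembly genes, Tm6sf2 and Apob passed in at least 1 comparison and Mttp in none. Mttp, on chromosome 3 (138089854 to 138144968, minus strand, GRCm38), encodes the large subunit of the microsomal triglyceride transfer protein. Mttp was at 352, 262.5, 224 and 263 CPM in the Dicretin libraries and at 256, 279.7, 263 and 289 CPM in the Semaglutide libraries. It was at 325, 315, 316 and 300.1 CPM in the calorie-restricted libraries and at 323, 317, 281 and 246 CPM in the saline libraries. Except that every Semaglutide library lay below every calorie-restricted one, the groups overlapped. Its log2 fold changes lay between -0.21 and 0.11 over the 6 comparisons, and the smallest edgeR adjusted p was 0.327. For Dicretin against saline the log2 fold change was -0.08 ± 0.14 (edgeR adjusted p = 0.674), and -0.21 without Dicretin 14 (adjusted p = 0.227) and 0.01 without Dicretin 64 (adjusted p = 0.98). Mttp overlaps Trmt10a on the opposite strand, which averaged 4.71 CPM in Dicretin and 4.37 CPM in saline.

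Apob, on chromosome 12 (7977648 to 8016835, plus strand), encodes the protein that wraps each VLDL particle and stays with it until uptake. Apob was at 3989, 3426, 2089 and 1906 CPM in the Dicretin libraries and at 2256, 4193, 3439 and 4082 CPM in the Semaglutide libraries. It was at 4993, 4065, 5325 and 5277 CPM in the calorie-restricted libraries and at 4439, 3782, 3398 and 3002 CPM in the saline libraries. Every Dicretin library lay below every calorie-restricted one, and the other pairs of groups overlapped. Apob was lower in Dicretin than in calorie restriction, with 2853 ± 1017 against 4915 ± 586 CPM and a log2 fold change of -0.79 ± 0.23 (edgeR adjusted p = 0.0161). The call was lost without Dicretin 64 (adjusted p = 0.0553) or Dicretin 65 (adjusted p = 0.0562). With the gene length trend of each library removed, the log2 fold change was -0.59 (adjusted p = 0.00414). Against saline, Dicretin gave -0.36 ± 0.23 (edgeR adjusted p = 0.244), Semaglutide -0.07 ± 0.23 (0.911) and calorie restriction 0.43 ± 0.23 (0.284). The Dicretin value was -0.55 without Dicretin 14 (adjusted p = 0.0649) and -0.20 without Dicretin 65 (adjusted p = 0.531). Apob is a long transcript, with 13934 exon bases, and within groups its log2 level ran with that of Mttp (Pearson r = 0.70) and against that of Apoc3 (r = -0.80), a transcript of 1014 exon bases. These describe deviations of 16 libraries from their group means, which also share the length trend of each library.

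Tm6sf2 rose in Dicretin and in calorie restriction. It lies on chromosome 8 (70072924 to 70080066, plus strand) and encodes a membrane protein of the early secretory pathway that is needed for full lipid loading of VLDL. Tm6sf2 was at 34.0, 54.7, 63.6 and 50.9 CPM in the Dicretin libraries and at 25.9, 27.7, 27.9 and 30.6 CPM in the Semaglutide libraries. It was at 35.4, 41.1, 37.6 and 35.2 CPM in the calorie-restricted libraries and at 21.9, 29.2, 26.2 and 18.6 CPM in the saline libraries. All Dicretin and all calorie-restricted libraries lay above all saline and all Semaglutide libraries, and the Semaglutide and saline libraries overlapped. For Dicretin against saline the log2 fold change was 1.08 ± 0.17 (edgeR adjusted p = 0.000103), with 50.8 ± 12.4 against 24.0 ± 4.67 CPM. For Dicretin against Semaglutide it was 0.86 ± 0.17 (edgeR adjusted p = 0.000937), and for Semaglutide against saline 0.22 ± 0.17 (edgeR adjusted p = 0.521). Calorie restriction gave 0.64 ± 0.17 against saline (edgeR adjusted p = 0.0303), a call that was lost without calorie-restricted library 7, 8, 52 or 79 or saline library 35, 73 or 78, with adjusted p from 0.0521 to 0.0929. Dicretin against calorie restriction gave 0.44 ± 0.17 (edgeR adjusted p = 0.0572), and 0.60 (adjusted p = 0.00494) without Dicretin 14, the lowest Dicretin library. It gave 0.32 (adjusted p = 0.19) without Dicretin 64, the highest, and passed without Semaglutide 11 (adjusted p = 0.0483). With all libraries it passed in edgeR with DESeq2 size factors (adjusted p = 0.0464) and in the DESeq2 Wald test (adjusted p = 0.0357).

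**Figure D2:**
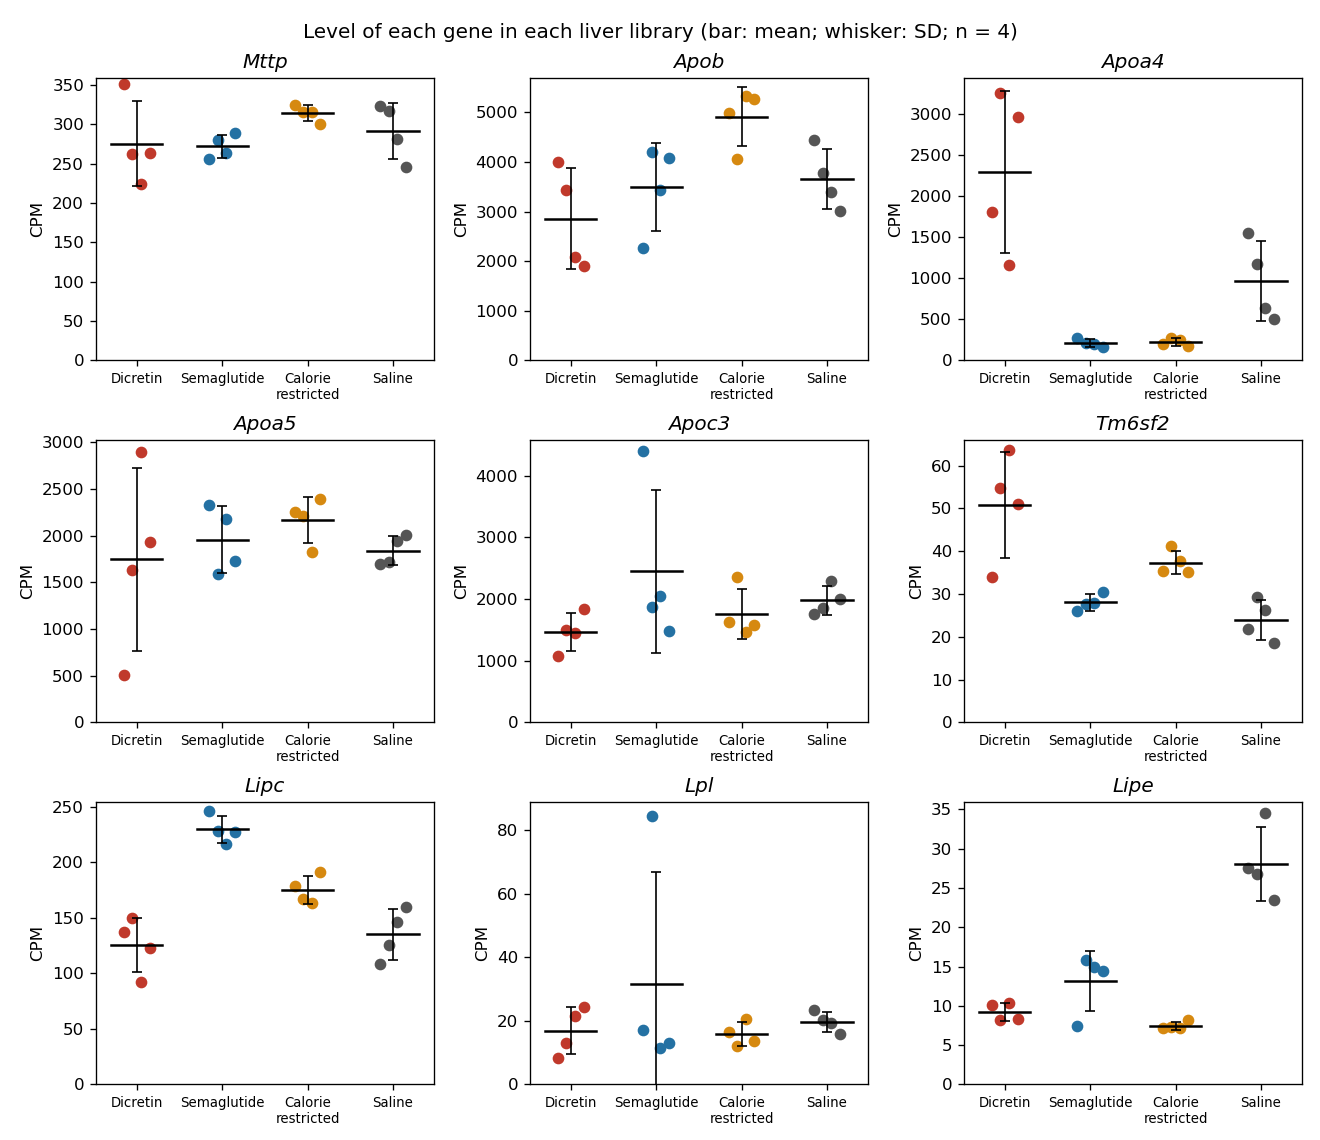
CPM of each of the 9 members in the 16 libraries, with 1 panel per gene, points for libraries and bars for the mean ± SD of 4 libraries (whiskers that would pass 0 end at the axis). Apoa4 stood at 1158 to 3252 CPM in Dicretin and at 161 to 276 CPM in Semaglutide and calorie restriction, and a single Semaglutide library stood apart in Lpl.

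Among the exchangeable apolipoproteins, Apoa4 rose in Dicretin and fell in Semaglutide and in calorie restriction. Apoa4, on chromosome 9 (46240696 to 46243459, plus strand), encodes apolipoprotein A-IV, a surface protein of lipid-rich particles that mouse liver makes along with the intestine. Apoa4 was at 1802, 3252, 1158 and 2954 CPM in the Dicretin libraries and at 270.3, 207, 204 and 161 CPM in the Semaglutide libraries. It was at 197, 276, 249 and 178 CPM in the calorie-restricted libraries and at 1549, 1171, 640.5 and 507.5 CPM in the saline libraries. Every Semaglutide and calorie-restricted library lay below every saline library, while 1 Dicretin library, number 64, lay below 2 saline libraries. For Dicretin against saline Apoa4 was higher (log2 fold change 1.24 ± 0.33, edgeR adjusted p = 0.00656). It fell in Semaglutide, with a log2 fold change of -2.20 ± 0.34 (edgeR adjusted p = 0.00104), and in calorie restriction, with -2.10 ± 0.34 (edgeR adjusted p = 0.000976). Between treatments, Dicretin stood 10.9-fold above Semaglutide (log2 3.44 ± 0.36, edgeR adjusted p = 1.05e-06) and 10.2-fold above calorie restriction (log2 3.35 ± 0.36, edgeR adjusted p = 1.48e-06). Semaglutide and calorie restriction differed by -0.10 ± 0.33 on the log2 scale (edgeR adjusted p = 0.888). All 5 calls were kept under each of the 27 alternatives tried.

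Markers of small intestine, the other main source of Apoa4, had a summed level over 5 genes of 20.8 to 64.2 CPM in Dicretin, 103 to 301 in Semaglutide, 85.6 to 165 in calorie restriction and 192 to 274 in saline. The median sum was 41.3 CPM in Dicretin, 165 in Semaglutide, 116 in calorie restriction and 228 in saline, and the Semaglutide and saline ranges overlapped. The part of these markers in the Apoa4 result was not tested. The intestinal regulator Cdx2 was at 0 in all 4 groups, and Sis was also at 0 in Semaglutide, calorie restriction and saline. Muc2 was at 0 in Semaglutide and calorie restriction, so the sums of these groups came from Vil1 and Fabp2 alone. Gm10680, which overlaps Apoa4 on the opposite strand, had no count in any library.

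Apoa5, on chromosome 9 (46268633 to 46271919, plus strand), encodes a scarce plasma protein that speeds the work of lipoprotein lipase. Apoa5 was at 512, 1635, 2900.0 and 1930.0 CPM in the Dicretin libraries and at 2331, 1586, 2183 and 1731 CPM in the Semaglutide libraries. It was at 2255, 2212, 1822 and 2394 CPM in the calorie-restricted libraries and at 1697, 1717, 1938 and 2009 CPM in the saline libraries. Dicretin 14 was the lowest of all 16 libraries and Dicretin 64 the highest, so the Dicretin libraries spanned all other groups. No comparison passed, and the log2 fold changes lay between -0.32 and 0.24 with adjusted p from 0.474 to 0.909. For Dicretin against saline the log2 fold change was -0.08 ± 0.31 (edgeR adjusted p = 0.87). It was 0.25 (adjusted p = 0.322) without Dicretin 14 and -0.44 (adjusted p = 0.275) without Dicretin 64.

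Apoc3, on chromosome 9 (46232933 to 46235636, minus strand), encodes an inhibitor of lipoprotein lipase that also slows the uptake of remnants. Apoc3 was at 1069, 1501, 1448 and 1835 CPM in the Dicretin libraries and at 4404, 1866, 2055 and 1484 CPM in the Semaglutide libraries. It was at 1625, 2359, 1472 and 1583 CPM in the calorie-restricted libraries and at 1763, 1853, 2287 and 2008 CPM in the saline libraries. Semaglutide 11 was the highest and Dicretin 14 the lowest of the 16, and every pair of groups overlapped. Apoc3 was lower in Dicretin than in Semaglutide by the test, with 1463 ± 314 against 2452 ± 1323 CPM and a log2 fold change of -0.75 ± 0.27 (edgeR adjusted p = 0.0411). Without Semaglutide 11 this was -0.30 with an adjusted p of 0.25, and without Dicretin 14 the adjusted p was 0.109. The call was also lost without Dicretin 23 or 64, calorie-restricted 7 or 52, or any of the saline libraries, with adjusted p from 0.05 to 0.0745. With all libraries it was lost with limma-voom (adjusted p = 0.0678) and in edgeR with no filter on low counts (0.0619). It was lost too with only these groups in the model (edgeR adjusted p = 0.126), and was kept under 12 of the 27 alternatives. With the gene length trend of each library removed, the log2 fold change was -0.47 (adjusted p = 0.0273). Against saline, Apoc3 gave -0.44 ± 0.27 in Dicretin (edgeR adjusted p = 0.217), 0.31 ± 0.27 in Semaglutide (0.569) and -0.17 ± 0.27 in calorie restriction (0.757). The Semaglutide value was -0.13 (adjusted p = 0.802) without Semaglutide 11.

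**Figure D3:**
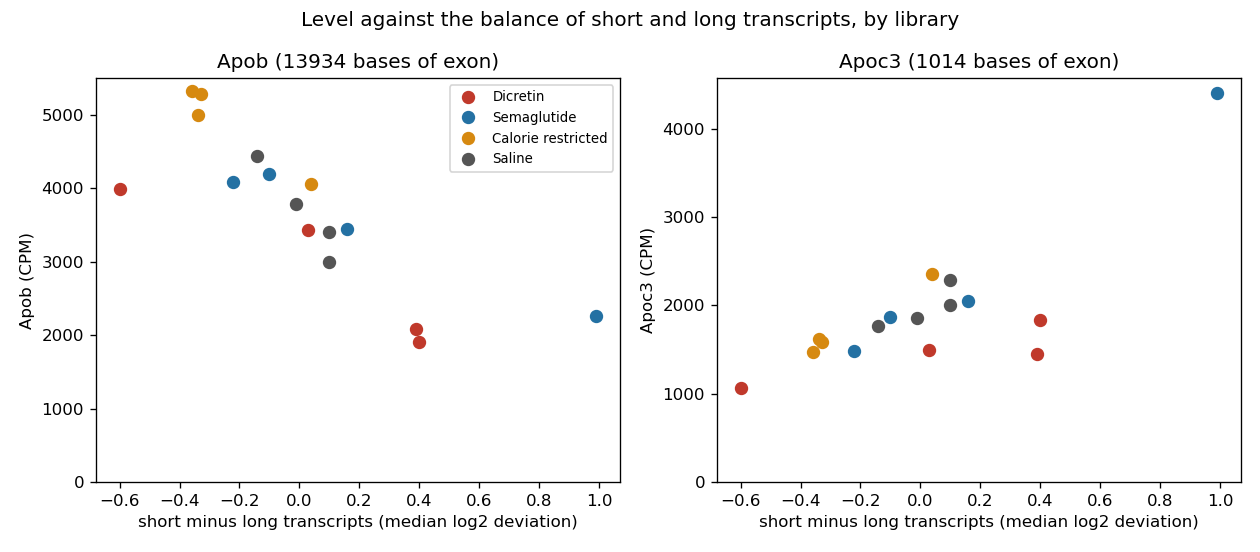
CPM of Apob (left) and Apoc3 (right) in the 16 libraries against the length trend of each library, which is the median log2 deviation of genes under 1500 exon bases minus that of genes over 6000. Semaglutide 11, at 0.99, held the highest Apoc3 level, and Dicretin 14, at -0.60, the lowest.

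Apoa4, Apoa5 and Apoc3 sit together with Apoa1 on chromosome 9, between Sik3 and Pafah1b2 on the one side and Zpr1 and Bud13 on the other. Of these 8 genes, 5 rose and none fell in Dicretin against saline, where 17.5% of all genes tested rose and 19.2% fell. The median log2 fold change of the 8 was 0.73, beside -0.01 for all genes tested. The genes that rose beside Apoa4 were the 4 flanking ones, while Apoa5 and Apoc3 did not pass. Pafah1b2, a subunit of an acetylhydrolase for platelet-activating factor, rose by 0.94 ± 0.15 (edgeR adjusted p = 8.02e-05), and Zpr1, a zinc finger protein gene, by 0.87 ± 0.19 (edgeR adjusted p = 0.00151). Sik3, a salt-inducible kinase gene, rose by 0.69 ± 0.22 (edgeR adjusted p = 0.0189), a call lost without Dicretin 14 (adjusted p = 0.0651) or saline 50 (0.0546). Bud13, a splicing gene named after its values were seen, rose by 0.78 ± 0.29 (edgeR adjusted p = 0.0442), and gave 0.35 without Dicretin 14 (adjusted p = 0.264). That call was also lost without Semaglutide 15 or any of the saline libraries. Apoa1, the main protein of high density lipoprotein, was at 6190.0 CPM in Dicretin, 15070.0 in Semaglutide, 9218 in calorie restriction and 9895 in saline. It was lower in Dicretin than in Semaglutide (log2 -1.28 ± 0.32, edgeR adjusted p = 0.00528) and did not pass against saline (-0.68 ± 0.32, edgeR adjusted p = 0.106). The Semaglutide call was lost without Semaglutide 11 and Dicretin 14 together (-0.99, adjusted p = 0.0755). Against saline Apoa1 passed without Dicretin 65 (-1.07, adjusted p = 0.011) and with limma-voom (adjusted p = 0.043). Against saline, Apoa4 alone of the 8 passed in Semaglutide, and likewise in calorie restriction, where Zpr1 had 0.61 ± 0.19 (edgeR adjusted p = 0.0556). For Dicretin against calorie restriction, 2 of the 8 were higher (15.1% of all genes), Apoa4 and Pafah1b2, and none was lower (16.2%). The median log2 fold change of the 8 was 0.28 there. Zpr1, Sik3 and Bud13 did not pass in that comparison (edgeR adjusted p = 0.303, 0.0883 and 0.461).

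**Figure D4:**
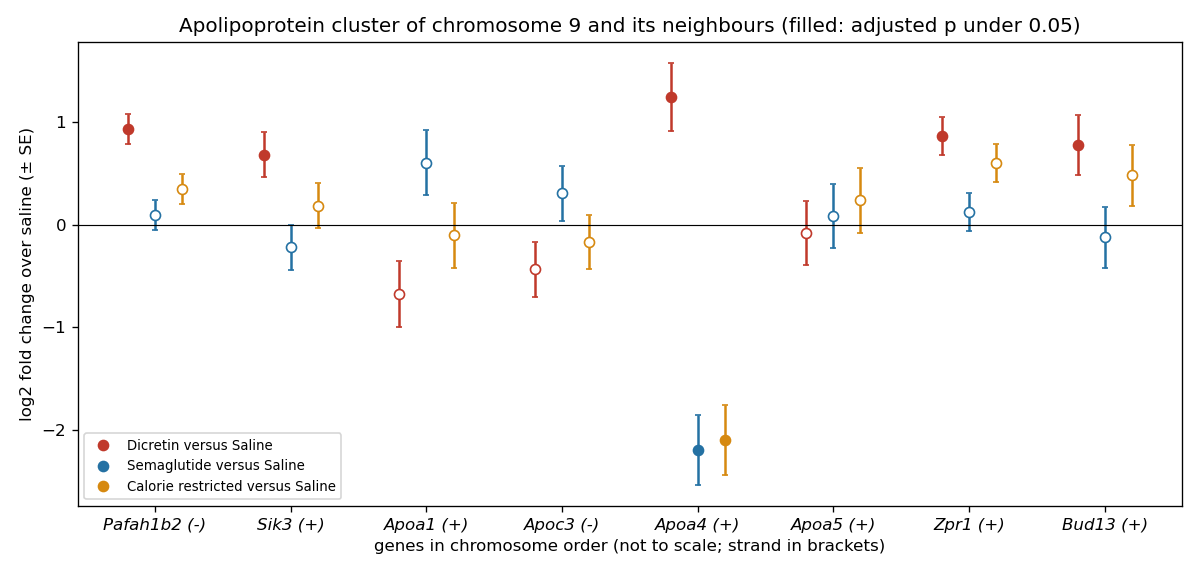
Log2 fold change against saline of 8 neighbouring genes in their order on chromosome 9, for Dicretin, Semaglutide and calorie restriction, with bars for the SE. Apoa4 lay at 1.24 in Dicretin and at -2.20 and -2.10 in Semaglutide and calorie restriction, and no other gene of the 8 passed in Semaglutide or calorie restriction.

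Of the 3 lipases, Lipc rose in Semaglutide, Lipe fell in all 3 treatments and Lpl passed in no comparison. Lipc, on chromosome 9 (70798128 to 70952226, minus strand), encodes hepatic lipase, which trims remnants and high density lipoprotein. Lipc was at 137, 149.5, 92.6 and 122 CPM in the Dicretin libraries and at 246, 228, 217 and 227 CPM in the Semaglutide libraries. It was at 178, 167, 163.5 and 191 CPM in the calorie-restricted libraries and at 108.5, 125, 146 and 159.7 CPM in the saline libraries. The 4 Semaglutide libraries lay above all other 12, the calorie-restricted ones came next, and the Dicretin and saline libraries overlapped below them. Lipc rose in Semaglutide against saline, with 229.5 ± 12.3 against 135 ± 22.6 CPM and a log2 fold change of 0.77 ± 0.15 (edgeR adjusted p = 0.00672). It was lower in Dicretin than in Semaglutide by -0.87 ± 0.15 on the log2 scale (edgeR adjusted p = 0.000265), and for Dicretin against saline the value was -0.11 ± 0.15 (edgeR adjusted p = 0.617). Dicretin against calorie restriction gave -0.48 ± 0.15 (edgeR adjusted p = 0.0225), lost without Dicretin 64 (adjusted p = 0.0778), calorie-restricted 7 (0.0529) or 79 (0.0644) and with no filter on low counts (0.0517). Calorie restriction against saline gave 0.37 ± 0.15 and Semaglutide against calorie restriction 0.39 ± 0.15, neither of which passed (edgeR adjusted p = 0.144 and 0.132).

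Lpl, on chromosome 8 (68880491 to 68907448, plus strand), encodes lipoprotein lipase, which adult hepatocytes make at low levels. Lpl was at 8.36, 13.1, 21.5 and 24.3 CPM in the Dicretin libraries and at 17.0, 84.3, 11.5 and 13.0 CPM in the Semaglutide libraries. It was at 16.6, 11.99, 20.6 and 13.7 CPM in the calorie-restricted libraries and at 23.4, 20.4, 19.3 and 15.7 CPM in the saline libraries. A single library, Semaglutide 15, stood apart, and the other 15 lay between 8.36 and 24.3 CPM. In Semaglutide 15 the muscle genes Acta1, Ckm and Mb summed to 440.4 CPM, and they summed to at most 0.0536 CPM in each of the other 15 libraries. Over the whole list of 6 muscle markers the sum was 0.317 to 0.803 CPM in Dicretin, 0.188 to 443 in Semaglutide, 0.306 to 1.07 in calorie restriction and 0.225 to 2.65 in saline. No comparison of Lpl passed. Semaglutide against saline gave 0.67 ± 0.52 (edgeR adjusted p = 0.527) with Semaglutide 15 and -0.51 (adjusted p = 0.365) without it, and Dicretin against saline gave -0.24 ± 0.53 (edgeR adjusted p = 0.755), or 0.01 (adjusted p = 0.993) without Dicretin 14. The part of the muscle transcripts in the Lpl level of that library was not tested.

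**Figure D5:**
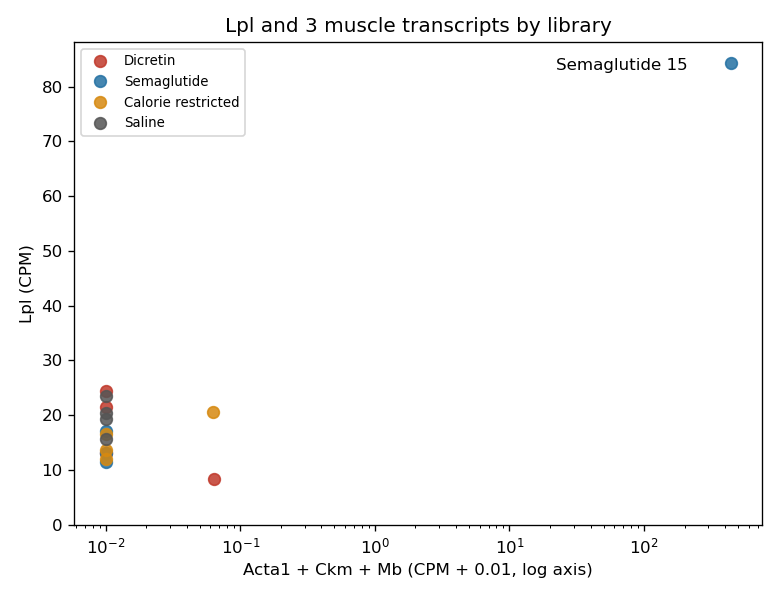
Lpl level against the summed level of the muscle genes Acta1, Ckm and Mb in the 16 libraries, with the muscle sum as CPM + 0.01 on a log axis and Lpl in CPM on a linear axis. Semaglutide 15 lies alone at 84.3 CPM of Lpl and 440.4 CPM of muscle genes, and the other 15 libraries lie at 0.0536 CPM of muscle genes or below.

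Lipe was lower in every treatment than in saline. It lies on chromosome 7 (25379527 to 25398710, minus strand) and encodes hormone-sensitive lipase, which cleaves diacylglycerol and cholesteryl esters and is best known from adipocytes. Lipe was at 10.1, 8.24, 10.3 and 8.31 CPM in the Dicretin libraries and at 7.43, 15.8, 14.9 and 14.4 CPM in the Semaglutide libraries. It was at 7.13, 7.26, 7.17 and 8.15 CPM in the calorie-restricted libraries and at 27.5, 26.8, 34.5 and 23.4 CPM in the saline libraries. All 12 treated libraries lay below all 4 saline ones, on 95 to 230 counts of Lipe in treated and 283 to 507 in saline libraries. The log2 fold change against saline was -1.60 ± 0.20 in Dicretin (edgeR adjusted p = 7.32e-06), -1.09 ± 0.20 in Semaglutide (0.0035) and -1.92 ± 0.20 in calorie restriction (1.59e-05), and all 3 calls were kept under every alternative tried. Semaglutide lay above calorie restriction by 0.83 ± 0.20 (edgeR adjusted p = 0.0205), a call lost without Semaglutide 15 or 31, without calorie-restricted 7, 8 or 52, and with only these groups in the model (adjusted p from 0.0514 to 0.0634). Dicretin against Semaglutide gave -0.51 ± 0.20 (edgeR adjusted p = 0.0601), and -0.70 (adjusted p = 0.00215) without Semaglutide 11, the lowest Semaglutide library. It gave -0.41 (adjusted p = 0.17) without Semaglutide 15, the highest. With all libraries it passed in edgeR with upper quartile factors (adjusted p = 0.0463) and with the gene length trend removed (adjusted p = 0.0382).

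The summed level of adipocyte markers was highest in saline, as was that of Lipe. Calorie restriction lay above Dicretin in the marker sum and below it in Lipe. The 6 markers summed to 0.813 to 1.66 CPM in Dicretin, 5.33 to 7.84 in Semaglutide, 3.04 to 3.94 in calorie restriction and 8.52 to 13.3 in saline. Of the saline sum, 4.14 to 9.54 CPM came from Cidea, a lipid droplet protein gene, which was at most 0.382 CPM in the 12 treated libraries. The adipocyte genes Adipoq, Plin1 and Lep were low in all groups, with at most 0.579, 0.314 and 0.827 CPM. Plin1, Lep and Retn were at 0 in all Dicretin and Semaglutide libraries. Most of the Semaglutide sum therefore came from Adrb3, the remaining marker, which was not near 0 there. The part of these markers in the Lipe result was not tested. The antisense gene 4732471J01Rik, which overlaps Lipe, had at most 0.0523 CPM in any library.

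Levels of different members can be set side by side only per length. The length used was that of all annotated exons of a gene merged, 10478 bases for Lpl and 5886 for Lipe. Which transcripts were in use was not examined, so the order of genes close in level is not secure. In saline, the mean level per kilobase of exon was 1950.0 CPM for Apoc3, 730 for Apoa5, 533 for Apoa4, 262 for Apob, 62.8 for Lipc, 47.0 for Mttp, 12.6 for Tm6sf2, 4.76 for Lipe and 1.88 for Lpl. The order of the middle genes is loose, since Apoa5 at 730 ± 62.1 and Apoa4 at 533 ± 266 lay within an SD of each other. In Dicretin, Apoa4 stood at 1263 ± 540 CPM per kilobase beside Apoc3 at 1443 ± 309. In Semaglutide, Apoa4 stood at 116 ± 24.8 CPM per kilobase beside Lipc at 107 ± 5.73. In calorie restriction Apoa4 stood at 124 ± 25.0 CPM per kilobase and Lipc at 81.4 ± 5.87. Over the 4 groups, Mttp ranged from 43.8 to 50.6 and Tm6sf2 from 12.6 to 26.7 CPM per kilobase.

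Other genes of particle assembly fell mostly in Dicretin, in a list chosen with earlier results of these data known. Of 13 such genes, 1 rose (17.5% of all genes tested) and 7 fell (19.2%) in Dicretin against saline. Their median log2 fold change was -0.62, beside -0.01 for all tested genes. In Dicretin 7 were lower (16.2% of all genes) and none higher (15.1%) against calorie restriction. Against Semaglutide 7 were lower (17.1%) and none higher (14.8%) in Dicretin. In Semaglutide 1 rose (1.56%) and none fell (2.62%), and in calorie restriction 1 rose (3.42%) and 1 fell (4.11%), each against saline. Sort1, which encodes sortilin, a sorting receptor that binds apolipoprotein B, was at 1.63 to 2.79 CPM in Dicretin, 9.68 to 17.7 in Semaglutide, 8.43 to 15.6 in calorie restriction and 4.56 to 7.36 in saline. It fell in Dicretin by 1.70 on the log2 scale (SE 0.27, edgeR adjusted p = 7.69e-05) and rose in Semaglutide by 1.16 ± 0.24 (edgeR adjusted p = 0.00929). Dicretin against Semaglutide gave -2.86 ± 0.27 for Sort1 (edgeR adjusted p = 2.76e-07). Lpcat3, whose enzyme places polyunsaturated chains in the phospholipids of nascent particles, gave -1.33 ± 0.17 in Dicretin against saline (edgeR adjusted p = 6.47e-06). Smlr1 gave -1.17 ± 0.25 in Dicretin (edgeR adjusted p = 0.00138), and Cideb, a droplet protein that helps fill VLDL, gave -0.61 ± 0.12 (edgeR adjusted p = 0.000737).

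Among 10 other apolipoproteins and transfer proteins, 1 rose (17.5% of all genes tested) and 2 fell (19.2%) in Dicretin against saline. In Semaglutide 1 rose (1.56%) and 1 fell (2.62%), and in calorie restriction 1 rose (3.42%) and 1 fell (4.11%), each against saline. Apom, the carrier of sphingosine 1-phosphate on high density lipoprotein, was the gene that rose in each. Apom averaged 273 ± 91.8 CPM in Dicretin, 285.5 ± 58.3 in Semaglutide, 173 ± 33.0 in calorie restriction and 92.9 ± 19.7 in saline. Its log2 fold changes were 1.55 ± 0.23 in Dicretin (edgeR adjusted p = 3.81e-05), 1.62 ± 0.23 in Semaglutide (0.000549) and 0.90 ± 0.22 in calorie restriction (0.0189). Pltp, the phospholipid transfer protein, fell against saline in all 3 groups, by 0.92 ± 0.28 on the log2 scale in Dicretin (edgeR adjusted p = 0.0142), 1.46 ± 0.28 in Semaglutide (0.00543) and 0.99 ± 0.28 in calorie restriction (0.0356). The Apom call in calorie restriction was lost without calorie-restricted 7 or 79 or saline 35, 50 or 73 (adjusted p from 0.0578 to 0.066). The Pltp call was lost without Dicretin 23 (0.0571) or saline 50 (0.0953) in Dicretin, and without any calorie-restricted library or saline 35, 50 or 73 in calorie restriction (0.059 to 0.168).

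Among 12 regulators of lipoprotein lipase, 2 rose (17.5% of all genes tested) and 2 fell (19.2%) in Dicretin against saline. None passed in Semaglutide (4.18%) and 1 rose in calorie restriction (3.42%), each against saline. Angptl8, a feeding-induced inhibitor of lipoprotein lipase, was at 64.5 to 95.5 CPM in Dicretin, 35.7 to 61.7 in Semaglutide, 45.2 to 107 in calorie restriction and 19.5 to 38.0 in saline. It rose by 1.48 ± 0.26 in Dicretin (edgeR adjusted p = 0.000274) and by 1.44 ± 0.26 in calorie restriction (0.00257), and gave 0.71 ± 0.26 in Semaglutide (0.139). The convertase genes Pcsk5 and Pcsk6, whose products cut lipases and their inhibitors, parted in Dicretin. Pcsk5 rose by 0.96 ± 0.23 (edgeR adjusted p = 0.00343), and Pcsk6 gave -1.08 ± 0.23 (edgeR adjusted p = 0.00108). Lmf1, needed for lipases to fold, gave -0.66 ± 0.14 (edgeR adjusted p = 0.00149).

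Of 10 other lipases and hydrolases, none rose (17.5% of all genes tested) and 5 fell (19.2%) in Dicretin against saline. In Semaglutide 1 fell (2.62%), and in calorie restriction 1 rose (3.42%) and 2 fell (4.11%), each against saline. Ces1d, a carboxylesterase that mobilises stored triglyceride for VLDL, was at 158.7 to 331 CPM in Dicretin, 525 to 1094 in Semaglutide, 1677 to 2085 in calorie restriction and 871 to 1166 in saline. It fell in Dicretin, with a log2 fold change of -2.34 ± 0.25 against saline (edgeR adjusted p = 9.57e-07) and of -3.18 ± 0.26 against calorie restriction (edgeR adjusted p = 6.39e-08). Ces1d has close copies among the carboxylesterases, so its level is uncertain. Pnpla2, the adipose triglyceride lipase, fell in calorie restriction, with -1.18 ± 0.17 against saline (edgeR adjusted p = 0.000409). It was higher than in calorie restriction in Dicretin, by 1.45 ± 0.17 (edgeR adjusted p = 5.25e-06), and in Semaglutide, by 0.94 ± 0.17 (0.00292). Neither passed against saline, where Pnpla2 gave 0.28 ± 0.17 in Dicretin (edgeR adjusted p = 0.214) and -0.24 ± 0.17 in Semaglutide (0.48). G0s2, an inhibitor of that lipase, gave -2.13 ± 0.34 in Semaglutide against saline (edgeR adjusted p = 0.00118). It also passed in calorie restriction, with -1.1 ± 0.325 (edgeR adjusted p = 0.0458), and gave -0.82 ± 0.32 in Dicretin (0.0542).

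Of 9 lipoprotein receptors and their regulators, 2 rose (17.5% of all genes tested) and 1 fell (19.2%) in Dicretin against saline. In Semaglutide 1 rose (1.56%) and in calorie restriction 3 rose (3.42%), each against saline. Sdc1, which encodes syndecan 1, a heparan sulphate proteoglycan that takes up remnants, was at 624 to 948 CPM in Dicretin, 134 to 156 in Semaglutide, 249.8 to 357 in calorie restriction and 139.7 to 169 in saline. It rose in Dicretin by 2.45 ± 0.16 (edgeR adjusted p = 3.14e-09) and in calorie restriction by 1.005 ± 0.15 (edgeR adjusted p = 0.000467). Semaglutide against saline gave -0.06 ± 0.15 (edgeR adjusted p = 0.858), and Dicretin stood above Semaglutide by 2.52 ± 0.16 (edgeR adjusted p = 2.54e-09).

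Among 15 transcription regulators known to act on the members, 3 rose (17.5% of all genes tested) and 6 fell (19.2%) in Dicretin against saline. In Semaglutide 1 rose (1.56%) and 1 fell (2.62%), and in calorie restriction 2 fell (4.11%), each against saline. The regulators with the largest changes in Dicretin are not reported here. Nr1d1, a clock repressor known to lower Apoc3 transcription, averaged 22.3 ± 3.58 CPM in Dicretin, 69.7 ± 31.4 in Semaglutide, 7.33 ± 0.758 in calorie restriction and 32.4 ± 5.45 in saline. Nr1d1 rose in Semaglutide by 1.11 ± 0.23 (edgeR adjusted p = 0.00949) and gave -2.14 ± 0.25 in calorie restriction (edgeR adjusted p = 3.74e-05). Apoc3 passed in neither comparison, and a link between Nr1d1 and Apoc3 in these livers was not tested. The labels do not give the time of day at which livers were collected. Hnf4a, named after its values were seen because its site type was searched above, rose in Dicretin by 0.82 ± 0.19 (edgeR adjusted p = 0.00274) and gave 0.08 ± 0.19 in Semaglutide (0.851) and 0.30 ± 0.19 in calorie restriction (0.377). Creb3l3, a liver factor known to act on Apoa4 in mice and also named after its values were seen, gave -0.45 ± 0.17 in Dicretin (edgeR adjusted p = 0.0412), a call lost under 16 of the 27 alternatives.

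Among the tested genes, those whose log2 level was most like that of a member over the 16 libraries are given as a description. The libraries share groups, depth and length trend, and a high correlation says nothing of shared control. For Apoa4 the nearest were the metallothionein gene Mt2 (Pearson r = 0.92), the AP-1 subunit gene Jun (0.90) and the spermine oxidase gene Smox (0.90). Mt2 averaged 397 CPM in Dicretin, 5.25 in Semaglutide, 1.54 in calorie restriction and 96.3 in saline. For Apob the nearest was Slk (r = 0.95), a kinase gene, and for Apoc3 it was Ndufb3 (r = 0.97), a subunit gene of respiratory complex I. For Lipc it was Marveld2 (r = 0.92), a tight junction gene. For Lpl the nearest were Pkia, Slc25a4 and Mylpf (r = 0.85, 0.84 and 0.83), of which Mylpf, a muscle myosin light chain gene, averaged 11.8 CPM in Semaglutide and at most 1.22 CPM in the other groups. Semaglutide 15 alone held the muscle transcripts described above and the high Lpl level, 84.3 CPM beside 11.5 to 17.0 in its mates. How far the Lpl correlations rest on that library was not tested. For Tm6sf2 the nearest gene was Snd1 (r = 0.90), for Lipe the calpain gene Capn1 (0.92) and for Mttp Utp14b (0.88).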

How the data were processed

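Poly(A)-selected, directional libraries were made from liver RNA, per the labels' protocols. The deposited values are raw counts per gene, as whole numbers with no normalization by the authors. Per the submitters' processing notes, TopHat2 version 2.1.1 and featureCounts were used with mm10. The annotation release, the strand setting and the featureCounts version are not given in the sources used here, so levels are uncertain where genes overlap on opposite strands or have near-identical copies. Libraries held 12.144 to 18.755 M counts (mean 15.331 M), 37 mitochondrial genes were listed at 0, and 22577 of 46078 genes had no count. Symbols, positions and exon lengths came from GENCODE M21 (GRCm38).

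In R 4.3.3, edgeR 4.0.16 fitted 1 model to all 16 libraries after filterByExpr and TMM scaling (12910 genes, common biological coefficient of variation 0.24). The 6 contrasts were tested with glmQLFTest, and the SE is the log2 fold change divided by the square root of F. The script was tested on simulated data. The named genes were all members, up to 4 genes per pathway list by smallest p, the 3 genes most correlated with each member (Pearson, log2 CPM with prior count 2) and markers. Some genes that this rule picks are not reported. Creb3l3, Hnf4a and Bud13 were added after their values were seen. The members and lists were chosen with earlier results of these data known. The alternatives were DESeq2 1.42.0 size factors and Wald test, upper quartile factors, limma-voom (limma 3.58.1), other filters on low counts, removal of the 20 genes with most counts, a model of only the groups compared, libraries left out, and a gene length offset. The joint removal of Semaglutide 15 and Dicretin 64 was chosen after seeing the data.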

Additional observations from a re-analysis of the deposited data

Results flagged for a closer look

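In each group of 4 libraries, a library was singled out where its gap to the nearest of the others, as a share of the group's range, exceeded Dixon's critical value. This was so in 15 of 156 gene and group pairs, of which 3 were members. Chance alone gives about 1 in 20. All values here are CPM.

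Among the members, Lpl was at 84.3 in Semaglutide 15 and at 11.5 to 17.0 in its mates. Lipe was at 7.43 in Semaglutide 11 and at 14.4 to 15.8 in its mates. In calorie restriction, Lipe was at 8.15 in library 79 and at 7.13 to 7.26 in its mates, a small gap within a narrow group.

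Further values came from Semaglutide 11, the library with the strongest length trend. There Apom was at 372 (mates 247 to 266), Pcsk6 at 51.0 (mates 104.6 to 112), Pnpla2 at 57.5 (mates 83.5 to 88.3) and Hnf4a at 262 (mates 526 to 556). In Dicretin 14, Sort1 was at 2.79 (mates 1.63 to 1.78) and Bud13 at 16.3 (mates 6.06 to 7.61). Ces1d was at 331 in Dicretin 64 and at 158.7 to 171 in its mates. Pnpla2 was at 56.5 in calorie-restricted 79 and at 34.2 to 36.3 in its mates. In saline, Sort1 was at 4.56 in library 73 (mates 6.92 to 7.36), Lmf1 at 49.5 in library 73 (mates 37.2 to 38.6), Lpcat3 at 96.9 in library 78 (mates 122 to 125) and Sik3 at 33.7 in library 50 (mates 42.0 to 42.9).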

How the results depend on the processing

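Of the 17 calls of members, 12 were kept under all 27 alternatives and 5 were lost under at least 1 (Apob and Lipc, Dicretin against calorie restriction; Apoc3, Dicretin against Semaglutide; Tm6sf2, calorie restriction against saline; Lipe, Semaglutide against calorie restriction). Of 37 values that did not pass, 8 passed under at least 1 alternative. No value that passed changed sign. With 1 library left out in turn, the number of members called was 3 to 3 for Dicretin and 3 to 3 for Semaglutide against saline, 2 to 3 for calorie restriction against saline, 1 to 4 for Dicretin against calorie restriction, 0 to 1 for Semaglutide against calorie restriction and 3 to 4 for Dicretin against Semaglutide. Without Semaglutide 11 and Dicretin 14 together, 5 members passed for Dicretin against calorie restriction, and without Semaglutide 15 and Dicretin 64 together 1 passed there and 0 for Semaglutide against calorie restriction. With only the groups compared, 5 members passed for calorie restriction against saline and 0 for Semaglutide against calorie restriction. With the length trend removed, 2 passed for Semaglutide against calorie restriction. The causes were not tested.

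Over all genes, leaving out 1 library gave 3921 to 5350 calls for Dicretin against saline, 256 to 778 for Semaglutide against saline (539 with all libraries), 502 to 1368 for calorie restriction against saline (972), 3262 to 4597 for Dicretin against calorie restriction, 445 to 1167 for Semaglutide against calorie restriction (790) and 3580 to 4240 for Dicretin against Semaglutide (4128). The DESeq2 Wald test gave 982 for Semaglutide and 1528 for calorie restriction against saline, and 1291 for Semaglutide against calorie restriction. With only the groups compared, calorie restriction against saline gave 2569 and Dicretin against Semaglutide 2658. Calorie restriction against saline gave 1880 without Semaglutide 11 and Dicretin 14. With the length trend removed, Semaglutide against saline gave 849, and the share of calls that were higher was 58.4% in Dicretin, 55.9% in Semaglutide and 60.2% in calorie restriction against saline, beside 47.6%, 37.3% and 45.5% without that step.

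Among the members, depth limits Lpl and Lipe most, with as few as 95 counts in a library, and 4 libraries per group limit all. The muscle and pancreas transcripts of single libraries and the length trend cannot be traced to a step of the preparation from the sources used here. No paired analysis was possible because the numbers in the library names are not shared between groups.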
